A study of Mus musculus with 51 samples.

Results

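The genes described here make bile acids and carry them between liver and gut. They are 10 genes taken by symbol: Cyp7a1, Cyp8b1, Cyp27a1, Cyp7b1, Cyp2c70, Abcb11, Slc10a1, Slc10a2, Slc51a and Slc51b. Each was read from the tables of liver, ileum, jejunum and duodenum, which list 10285, 12041, 11021 and 10930 genes. Of the 10, 8 were listed in liver, 4 in ileum, 4 in jejunum and 3 in duodenum. A gene missing from a table was below the authors' filter on low values there.

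The animals were male C57Bl6 mice with diet-induced obesity, sampled 9 weeks after surgery, which was either Roux-en-Y gastric bypass, RYGB for short, or a sham procedure. RYGB leads food from a small stomach pouch directly into the jejunum. Both groups received an elemental liquid diet and then high-fat food, and the sham mice were given restricted rations to match the weight of the RYGB mice. All mice were fasted overnight and killed in the morning, and villi were scraped from the gut after cold EDTA treatment. The groups were RYGB and sham liver (5 and 4 libraries), RYGB and sham ileum (2 and 5), RYGB and sham jejunum (4 and 5), and RYGB and sham duodenum (4 and 5). These 34 of the study's 51 libraries came from 10 animals, 5 in each group, so most animals are represented in more than 1 tissue. What the operation did and what the restricted rations of the sham mice did cannot be told apart. The limb of the bypass from which jejunum was taken is not stated in the labels.

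Hepatocytes make bile acids from cholesterol. The classical pathway starts with Cyp7a1, its rate-limiting enzyme, and the alternative pathway starts with Cyp27a1 and continues with Cyp7b1. Cyp8b1 directs the classical pathway to cholic acid, and Cyp2c70 makes muricholic acids, which mice have in abundance and humans lack. Abcb11 exports bile acids across the canalicular membrane into bile, the ileal enterocyte takes them up through Slc10a2 and releases them through the Slc51a and Slc51b dimer, and Slc10a1 returns them from portal blood to the hepatocyte. Bile acids that reach the ileum also activate the nuclear receptor Nr1h4, which induces the hormone Fgf15, and Fgf15 represses Cyp7a1 in the liver.

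Promoter sequence from RefSeq (build GRCm38.p6) was matched by symbol for 8 of the 10 genes; Cyp7a1 and Cyp7b1 were not among them. The 250 bases before the start of the 3 genes that rose in RYGB liver are printed first, each 5′ to 3′ on the gene's strand. They are chr19:40187287-40187536 (minus strand) for Cyp2c70, chr2:69342617-69342866 (minus strand) for Abcb11 and chr1:74713285-74713534 (plus strand) for Cyp27a1. Capitals mark the letters of the HNF4A motif CAAAGTCC or its reverse complement GGACTTTG, of the HNF1 motif GTTAAT or its reverse complement ATTAAC, and of the TATA box TATAAA or its reverse complement TTTATA.
Cyp2c70: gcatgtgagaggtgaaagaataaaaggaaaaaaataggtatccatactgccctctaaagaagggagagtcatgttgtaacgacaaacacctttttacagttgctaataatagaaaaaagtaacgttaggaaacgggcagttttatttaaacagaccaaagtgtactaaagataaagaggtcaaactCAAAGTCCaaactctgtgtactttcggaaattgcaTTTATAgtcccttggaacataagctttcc
Abcb11: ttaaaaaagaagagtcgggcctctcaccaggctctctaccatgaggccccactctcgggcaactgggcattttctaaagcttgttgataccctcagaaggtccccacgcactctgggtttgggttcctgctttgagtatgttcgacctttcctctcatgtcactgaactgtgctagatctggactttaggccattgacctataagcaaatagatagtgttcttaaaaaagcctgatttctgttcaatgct
Cyp27a1: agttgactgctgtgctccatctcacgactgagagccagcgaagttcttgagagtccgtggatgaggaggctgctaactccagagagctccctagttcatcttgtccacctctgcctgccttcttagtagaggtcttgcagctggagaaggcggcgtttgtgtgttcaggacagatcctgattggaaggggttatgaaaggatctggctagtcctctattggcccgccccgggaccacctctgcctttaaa
The remaining sequences are those of Cyp8b1 at chr9:121916306-121916555 (minus strand) and Slc51a at chr16:32487880-32488129 (minus strand), which share the HNF4A letters with Cyp2c70, and of Slc10a2 at chr8:5105288-5105537 (minus strand), the gene with an HNF1 match.
Cyp8b1: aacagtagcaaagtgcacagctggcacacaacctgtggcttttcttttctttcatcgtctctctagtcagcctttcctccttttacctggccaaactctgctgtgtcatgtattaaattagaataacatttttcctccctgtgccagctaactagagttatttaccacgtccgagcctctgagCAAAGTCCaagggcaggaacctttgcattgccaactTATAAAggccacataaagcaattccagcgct
Slc51a: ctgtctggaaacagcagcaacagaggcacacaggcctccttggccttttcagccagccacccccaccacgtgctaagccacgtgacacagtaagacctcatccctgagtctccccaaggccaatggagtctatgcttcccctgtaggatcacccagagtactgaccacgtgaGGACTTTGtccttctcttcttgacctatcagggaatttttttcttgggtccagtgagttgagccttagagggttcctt
Slc10a2: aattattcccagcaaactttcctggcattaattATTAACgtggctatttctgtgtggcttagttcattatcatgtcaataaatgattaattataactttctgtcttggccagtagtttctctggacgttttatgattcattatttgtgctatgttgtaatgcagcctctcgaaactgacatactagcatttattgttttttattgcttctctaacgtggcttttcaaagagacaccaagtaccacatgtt
The HNF4A letters stood at -64 to -57 in Cyp2c70, at -67 to -60 in Cyp8b1 and, reversed, at -78 to -71 in Slc51a. Positions are counted from the RefSeq start site. For Cyp2c70, Slc10a2 and Cyp27a1 this start differs from the gene bounds given below, which are those of GENCODE. Part of the printed bases of Cyp2c70 and Slc10a2, among them the TTTATA letters of Cyp2c70, lies inside those bounds. Both strands of windows of 300 bases, 250 before and 50 after the start, were searched. The HNF4A letters were in 467 of 32851 such windows (1.42%), the HNF1 letters in 2332 (7.1%), and TATAAA, which the windows of Cyp2c70, Cyp8b1 and Slc10a1 held, in 4473 (13.6%). No match was found in the windows of these genes for the LRH-1 letters CAAGGTC (1301 windows, 3.96%), the GATA letters AGATAAG (1000 windows, 3.04%), the inverted-repeat element bound by Nr1h4 (3 windows, 0.00913%) or the D-box TTATGTAA (308 windows, 0.938%). No motif here overlapped another. A match is only a run of letters and was not tested as a site.

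Values are the CPM (counts scaled to the library's total) deposited by the authors, and differences are on the scale of log2(CPM + 1) with their standard errors; the added 1 makes low genes appear to change less than they did. They were tested per tissue with limma over every gene of the table, and a gene is called where its Benjamini-Hochberg adjusted p is below 0.05. Reads per library could be worked out for 5 liver libraries, RYGB 2, 3 and 4 and sham 1 and 2, from the steps between low values. They lay between 4224000 and 5124000, and for the others the depth is unknown. These 5 were the shallower liver libraries. Their low values took 42.4% to 51.5% of the possible decimal steps, and those of the other liver libraries 100%. The RYGB mice were coded R1 to R5 and the sham mice W3, W11, W12, W14 and W15. In ileum, RYGB library 2 and sham library 4 stood apart on marker genes, as did 4 of the 9 duodenum libraries on pancreatic transcripts, with the values given beside the results they touch. Another scaling of the CPM (median of ratios) moved the median log2 difference of all genes by 0.18 in liver, 0.07 in jejunum, 0.16 in duodenum and -0.10 in ileum (CPM minus scaled).

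In liver, 3 of the 8 listed genes were higher after RYGB at an adjusted p below 0.05 (Cyp2c70, Abcb11 and Cyp27a1) and 0 were lower. Over the whole liver table, 2.03% of the 10285 genes were called higher, 2.6% lower and 4.63% in either direction. The RYGB and sham libraries did not overlap for 4 of the 8, the 3 genes just named and Cyp7a1, which was lower; without regard to direction this was so for 12.3% of all liver genes. The median log2 difference of the 8 was 0.68, beside 0.26 for all liver genes. Whole liver samples and scraped villi were profiled in bulk, so fewer cells of a type and less RNA per cell cannot be told apart in any value that follows.

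**Figure D1:**
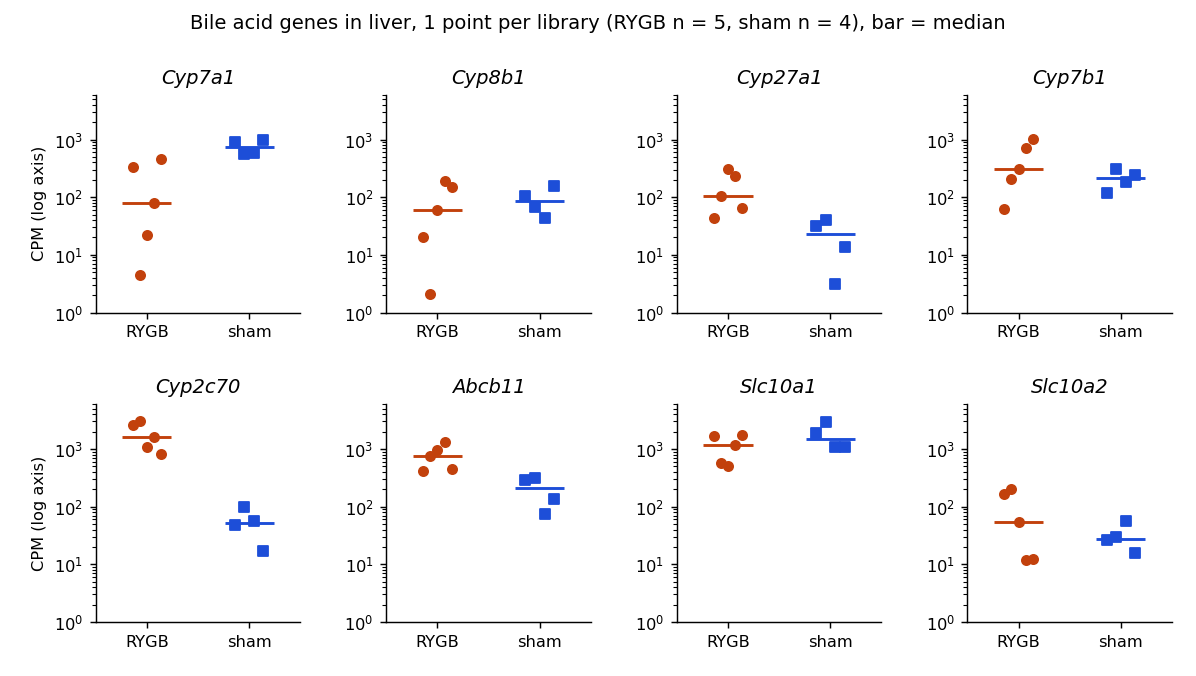
CPM (log axis) of the 8 listed genes in each liver library, RYGB left and sham right, with a bar at the median. The 5 RYGB libraries lie above the 4 sham libraries for Cyp2c70, Abcb11 and Cyp27a1 and below them for Cyp7a1, and the groups overlap for the other 4 genes.

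Cyp2c70, a cytochrome P450 on chromosome 19 from 40153353 to 40187333 (GRCm38, minus strand), had the smallest p of the 10285 liver genes. It measured 2623, 3034, 1066, 1629 and 821 CPM in RYGB liver, against 48.4, 100.1, 57.0 and 16.9 CPM in sham liver. Every RYGB library was above every sham library, and the lowest RYGB value was several times the highest sham value. The means were 1835 ± 964 CPM in RYGB liver and 55.6 ± 34.3 CPM in sham liver (SD, n = 5 and 4), a ratio of 33.0. The log2 difference was 5.09 ± 0.51, with an adjusted p of 0.0025 in limma, and an exact two-sided permutation test of the 9 libraries gave 0.00794, the smallest p it can give. The call held when each of the 9 libraries was left out in turn, at adjusted p of 0.00146 to 0.0150. Of 11 other Cyp2c genes listed in liver, 0 were called in limma, with log2 differences of -0.98 to 1.78; members of this family are alike in sequence, so that reads may be divided uncertainly between them.

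Abcb11, the bile salt export pump on chromosome 2 from 69238282 to 69342616 (minus strand), measured 422, 761, 950, 1316 and 447 CPM in RYGB liver, against 287, 309, 74.9 and 137 CPM in sham liver. The groups did not overlap, although the lowest RYGB library was close to the upper sham libraries. The means were 779 ± 373 CPM in RYGB liver and 202 ± 114 CPM in sham liver (SD, n = 5 and 4), a ratio of 3.86. Its log2 difference was 2.02 ± 0.47 with an adjusted p of 0.0424 in limma, and 0.00794 in the exact two-sided permutation test. Cyp27a1, the mitochondrial sterol 27-hydroxylase on chromosome 1 from 74713574 to 74737892 (plus strand), measured 42.8, 105, 311, 232 and 65.1 CPM in RYGB liver, against 31.6, 41.0, 3.1 and 13.9 CPM in sham liver. Here too the groups were apart, with RYGB 1 and sham 2 next to each other. The log2 difference of Cyp27a1 was 2.79 ± 0.71, with an adjusted p of 0.0473 in limma and an exact two-sided permutation p of 0.0159. Both calls depended on the libraries and were lost without any one of RYGB 2, 3 and 4 and sham 2, 3 and 4. The adjusted p in limma then lay between 0.0660 and 0.154 for Abcb11 and between 0.0660 and 0.163 for Cyp27a1. Within each group, both genes were higher in the shallower libraries (RYGB 2, 3 and 4, sham 1 and 2) than in the others. The part of depth in these values was not tested.

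The liver enzymes of the classical pathway gave lower or overlapping values. Cyp7a1, on chromosome 4 from 6265612 to 6275633 (minus strand), measured 328, 4.5, 22.2, 78 and 451 CPM in RYGB liver, against 892, 568, 588 and 977 CPM in sham liver. All RYGB libraries were below all sham libraries, but they differed from each other more than the sham libraries did, and the 4.5 CPM of RYGB 2 stand for about 23 reads. The means were 177 ± 201 CPM in RYGB liver and 756 ± 209 CPM in sham liver (SD, n = 5 and 4). The log2 difference of -3.43 ± 1.10 did not pass the test (adjusted p = 0.0743 in limma), and the exact two-sided permutation p for this gene alone was 0.0397. Without RYGB 1 the adjusted p was 0.0328, without RYGB 5 it was 0.0298, and over the other libraries left out in turn it reached 0.203. Cyp8b1, the sterol 12-alpha-hydroxylase, measured 20.8, 2.1, 59.7, 189 and 147 CPM in RYGB liver and 104, 67.9, 43.5 and 159 CPM in sham liver. The RYGB values reached beyond the sham range on both sides (log2 difference -1.05 ± 1.01, adjusted p = 0.463), and the lowest value of both genes was in RYGB 2, where Cyp8b1 rests on about 11 reads.

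Cyp7b1, the oxysterol 7-alpha-hydroxylase of the alternative pathway, measured 61.3, 205, 303, 722 and 1031 CPM in RYGB liver, against 121, 307, 184 and 238 CPM in sham liver. The RYGB libraries lay on both sides of the sham range, and the log2 difference was 0.62 ± 0.67 (adjusted p = 0.510). Slc10a1, the basolateral uptake carrier, measured 1661, 577, 512, 1187 and 1770 CPM in RYGB liver, against 1892, 2884, 1083 and 1075 CPM in sham liver, with overlap and a log2 difference of -0.66 ± 0.46 (adjusted p = 0.312). The value for Slc10a1 turned to 0.67 without the 5 libraries whose depth could be worked out. Slc10a2, which in liver is known from cholangiocytes, measured 167, 198, 53.7, 11.7 and 12.2 CPM in RYGB liver, against 26, 29.6, 56.3 and 15.8 CPM in sham liver. RYGB 1 and 2 were above the sham range and RYGB 4 and 5 below it (log2 difference 0.74 ± 0.80, adjusted p = 0.513). The cholangiocyte markers, 5 of 7 listed with Krt19 and Krt7 absent from the table, summed to 81.3 to 235 CPM in RYGB liver and 109 to 238 CPM in sham liver, and 0 were called. Slc51a and Slc51b were not listed in liver.

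The order of levels per kilobase of exon also differed between the groups. In RYGB liver the mean was highest for Cyp2c70 at 925 CPM per kilobase, followed by Slc10a1 at 519, Cyp7b1 at 214, Abcb11 at 152, Cyp27a1 at 69.6, Cyp8b1 at 42.9, Cyp7a1 at 42.4 and Slc10a2 at 21.4. The library ranges of all neighbours in this order overlapped. In sham liver the order was Slc10a1 at 788 CPM per kilobase, Cyp7a1 at 181, Cyp7b1 at 98.1, Cyp8b1 at 48.0, Abcb11 at 39.2, Cyp2c70 at 28.1, Cyp27a1 at 10.3 and Slc10a2 at 7.7. There Slc10a1 stood apart from the next gene, while all other neighbours overlapped. Within single libraries, Cyp2c70 ranked 1, 1, 1, 1 and 3 of 8 in RYGB liver, against 6, 5, 4 and 6 in sham liver. Cyp7a1 ranked 4, 7, 8, 7 and 4 in RYGB liver, against 2, 3, 2 and 2 in sham liver.

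**Figure D2:**
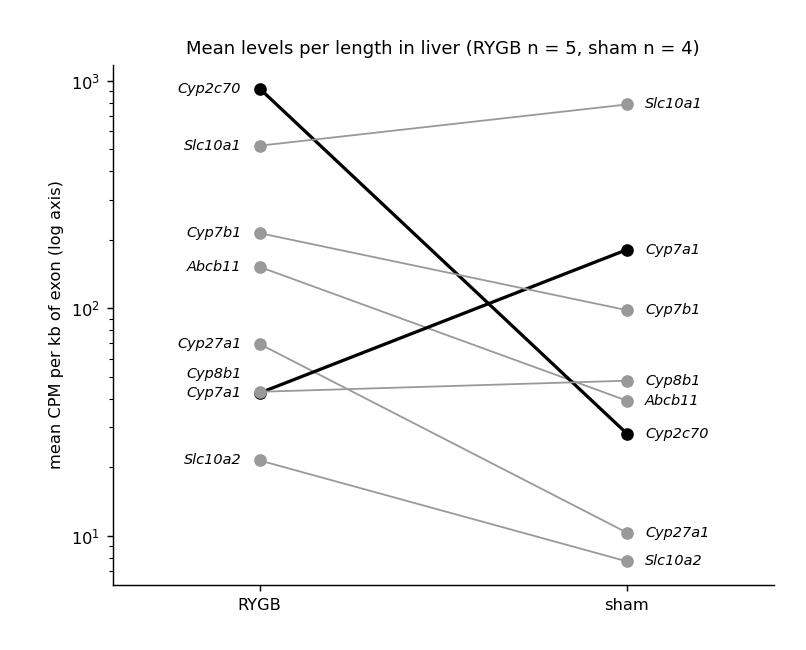
Mean CPM per kilobase of exon (log axis) of the 8 listed genes in RYGB liver (left) and sham liver (right), joined by a line per gene, with Cyp2c70 and Cyp7a1 in black. Cyp2c70 is at 925 in RYGB liver and 28.1 in sham liver, and Cyp7a1 at 42.4 in RYGB liver and 181 in sham liver.

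Markers of other liver cell types moved as well. Kupffer cell and leukocyte markers (5 of 6 listed, Adgre1 absent from the table) summed to 545, 432, 1224, 391 and 88.6 CPM in RYGB liver, against 171, 99.8, 64.0 and 34.7 CPM in sham liver, and 3 of the 5 were called. Stellate and endothelial markers (7 of 7 listed) summed to 634 to 969 CPM in RYGB liver and 1019 to 1314 CPM in sham liver, without overlap, and 2 were called. Hepatocyte markers (7 of 7 listed) summed to 26750 to 104900 CPM in RYGB liver and 41210 to 53660 CPM in sham liver, with 1 called. Genes under 1000 exon bases stood against genes over 4000 at -0.06, 0.00, 0.52, 0.17 and -0.05 (difference in median log2 deviation from the table's mean) in RYGB liver, and at -0.43, -0.07, -0.28 and -0.03 in sham liver. With this length trend removed, Cyp2c70 (4.59, adjusted p = 0.00353), Abcb11 (1.8, adjusted p = 0.0340) and Cyp27a1 (2.30, adjusted p = 0.0365) were still called. The part of the cell markers in these results was not tested.

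In ileum, the segment that takes bile acids up, 4 of the 10 genes were listed and 0 were called in limma (0% of all 12041 genes, 438 of which had an unadjusted p below 0.05, among them 0 of the 4). The 2 RYGB and 5 sham libraries overlapped for all 4, and for all but 8.09% of the genes listed in ileum. Slc10a2, the apical carrier on chromosome 8 from 5083219 to 5105351 (minus strand), measured 548 and 102 CPM in RYGB ileum, against 406, 773, 593, 72.3 and 316 CPM in sham ileum. Both RYGB values were inside the sham range (log2 difference -0.50 ± 0.92, adjusted p = 1.00, exact two-sided permutation p = 0.810). Slc51a measured 1529 and 416 CPM in RYGB ileum, against 1473, 1500, 1797, 613 and 1088 CPM in sham ileum (log2 difference -0.61 ± 0.57). Slc51b measured 86.8 and 32.9 CPM in RYGB ileum, against 101, 142, 106, 26.6 and 79.4 CPM in sham ileum (log2 difference -0.57 ± 0.63). For Slc51a the lower RYGB value was below all sham libraries and the other inside their range, and for Slc51b both were inside the sham range. Cyp27a1 measured 65.1 and 51.3 CPM in RYGB ileum, against 42.4, 42.6, 66.8, 28.7 and 29.7 CPM in sham ileum (log2 difference 0.52 ± 0.36). The median log2 difference of the 4 was -0.54, beside -0.09 for all ileal genes, and with 21 ways to split the libraries no permutation p could be below 0.0476.

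Those ileal values rest on libraries that differ in their markers. Ileal markers other than the genes described here (Fabp6, Fgf15 and Ces1f listed, Clca4b absent from the table) summed to 1638 and 27.7 CPM in RYGB ileum, against 497 to 801 CPM in sham ileum. The same 2 libraries had proximal gut markers at 676 and 3360 CPM in RYGB ileum, against 257 to 904 CPM in sham ileum. Sham library 4 had 19270 CPM of enterocyte markers, where the other 6 libraries had 61020 to 77210 CPM, and 41980 CPM of Paneth cell markers. Without RYGB 2 the log2 differences were 0.71 for Slc10a2, 0.33 for Slc51a and 0.12 for Slc51b, and without RYGB 2 and sham 4 together they were 0.16, 0.08 and -0.27. The Slc51a locus shares 567 exon bases (17.7%) with Pcyt1a and the Slc51b locus 91 (12.8%) with Rasl12, each on the opposite strand. The sources do not say whether counting used the strand, so part of their values could come from those neighbours.

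In 6 animals both ileum and liver were profiled, so the ileal genes of the Fgf15 signal can be set beside Cyp7a1 and Cyp8b1 of the same mouse. RYGB mouse R2 had 30.0 CPM of ileal Fgf15 and 1549 CPM of ileal Fabp6, the bile acid binding protein of the ileum, with 4.5 CPM of liver Cyp7a1 and 2.1 CPM of liver Cyp8b1. RYGB mouse R5 had 2.6 CPM of Fgf15 and 6.6 CPM of Fabp6 in the library with low ileal markers, with 451 CPM of Cyp7a1 and 147 CPM of Cyp8b1. The 4 sham mice W11, W14, W15 and W3 had 260, 423, 31.7 and 40.0 CPM of Fgf15 and 349, 353, 664 and 432 CPM of Fabp6. Their livers had 892, 568, 588 and 977 CPM of Cyp7a1 and 104, 67.9, 43.5 and 159 CPM of Cyp8b1. The mouse with the highest Fabp6, R2, had the lowest Cyp7a1 and Cyp8b1 of the 6. Its Fgf15 of 30.0 CPM was below that of all 4 sham mice, but close to the 31.7 CPM of W15. The ileum of W15 is sham library 4, whose markers stood apart as described above. The liver library of R2 was also at an extreme for other genes. Of the 9 liver libraries it had the lowest Cyp3a11 (104 CPM, the others 1666 to 6515) and Fabp1 (42.1 CPM, the others 113 to 1438). It had the highest Cyp2c70 (3034 CPM) and Slc10a2 (198 CPM). No relation was tested over 6 animals of 2 operations.

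In jejunum, 4 of the 10 genes were listed. Slc51b was called higher after RYGB and Cyp27a1 lower, while Slc10a2 is set apart from the calls. Slc10a2 reached 1 CPM in 4 of 4 RYGB libraries and 1 of 5 sham libraries, and the table lists genes at 1 CPM in at least 4 libraries. It was thus listed through the group in which it is high, so its values are a description with no test. They support no count of calls here, and later counts that include them say so. Of the 11021 jejunal genes, 6.32% were called higher, 6.29% lower and 12.6% either way. The groups did not overlap for Slc51a (higher) and Cyp27a1 (lower), as for 14.3% of all jejunal genes. Slc10a2 measured 2.5, 7.7, 2.6 and 2.3 CPM in RYGB jejunum, against 0.9, 0.6, 1.2, 0.3 and 0.6 CPM in sham jejunum. Every RYGB library was above every sham library, at levels far below those of the ileum, where the lowest library had 72.3 CPM. The means were 3.78 ± 2.62 CPM in RYGB jejunum and 0.720 ± 0.342 CPM in sham jejunum (SD, n = 4 and 5).

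Both subunits of the basolateral exporter were also higher on average in RYGB jejunum. Slc51a measured 278, 208, 256 and 274 CPM in RYGB jejunum, against 197, 184, 159, 168 and 201 CPM in sham jejunum. The groups were apart by a few CPM, and the log2 difference was 0.48 ± 0.15, just short of the threshold at an adjusted p of 0.0533 in limma. Without RYGB 2, the lowest RYGB library, it was 0.57 with an adjusted p of 0.0279. Slc51b measured 44.9, 20.8, 29.7 and 15.3 CPM in RYGB jejunum, against 11.8, 11.6, 4.1, 10.5 and 16 CPM in sham jejunum. RYGB 4 and sham 5 overlapped, and the log2 difference was 1.27 ± 0.38 with an adjusted p of 0.0491. Slc51b has 709 exon bases, and in jejunum genes under 1000 exon bases stood against genes over 4000 at 0.77, -0.18, 0.30 and -0.09 in RYGB libraries and -0.06, -0.05, -0.57, -0.22 and 0.09 in sham libraries. The highest and lowest of these are the libraries with the highest and lowest Slc51b. With the length trend removed the log2 difference of Slc51b was 0.88 (adjusted p = 0.0344), that of Slc51a 0.37 (adjusted p = 0.0764) and that of Cyp27a1 -2.18 (adjusted p = 0.0406). As deposited, the adjusted p of Slc51b lay between 0.0562 and 0.122 without any one of RYGB 1, 2 and 3 and sham 1, 2, 3 and 4.

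Cyp27a1 went the other way in jejunum than in liver. It measured 23.9, 56.4, 9.2 and 94.0 CPM in RYGB jejunum, against 108, 126, 208, 141 and 121 CPM in sham jejunum. All RYGB libraries were below all sham libraries. The means were 45.9 ± 37.7 CPM in RYGB jejunum and 141 ± 39.5 CPM in sham jejunum (SD, n = 4 and 5), with a log2 difference of -2.01 ± 0.54, an adjusted p of 0.0382 in limma and an exact two-sided permutation p of 0.00794. The call was lost without any one of RYGB 1 and 3 and sham 1 to 5, at adjusted p of 0.0584 to 0.0953. The liver and jejunum effects on Cyp27a1 were set against each other over the animals that gave both tissues, 4 per operation, as a comparison added after seeing the data. The jejunum effect minus the liver effect was -4.47 ± 0.98 on the log2 scale, with an adjusted p of 0.107 over 8918 genes, of which 0.0673% were called, so the difference did not pass the test. 

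Jejunal markers moved beside these genes. Paneth cell markers (6 of 6 listed) summed to 864 to 6692 CPM in RYGB jejunum and 74.6 to 707 CPM in sham jejunum, without overlap, and 5 were called. Of 4 ileal markers other than the genes described here, Fabp6, Fgf15 and Clca4b were absent from the table. The one listed, Ces1f, was at 13.4 to 82.8 CPM in RYGB jejunum and 109 to 356 CPM in sham jejunum, and was called lower. Proximal markers (6 of 7 listed) summed to 3377 to 6510 CPM in RYGB jejunum and 4853 to 8760 CPM in sham jejunum. Enterocyte markers (8 of 8 listed) summed to 51320 to 57750 CPM in RYGB jejunum and 44120 to 72230 CPM in sham jejunum. The part of these markers in the values of the transport genes was not tested.

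**Figure D3:**
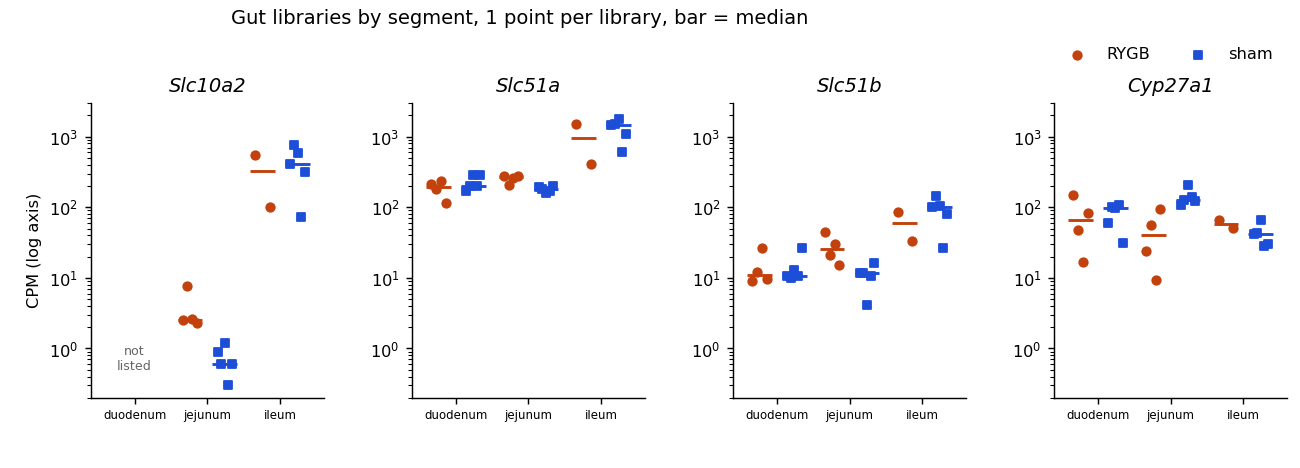
CPM (log axis) of Slc10a2, Slc51a, Slc51b and Cyp27a1 in each library of duodenum, jejunum and ileum, RYGB left of sham in each segment, with a bar at the median. In jejunum the RYGB libraries lie above sham for Slc10a2 and Slc51a and below sham for Cyp27a1, and Slc10a2 was not listed in duodenum.

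In duodenum, 3 of the 10 genes were listed and 0 were called, nor did any have an unadjusted p below 0.05; of the 10930 duodenal genes, 0.348% were called (0.128% higher, 0.22% lower) and 7.58% did not overlap between the groups. Cyp27a1 measured 150, 47.6, 16.5 and 84.0 CPM in RYGB duodenum, against 58.9, 102, 99.1, 107 and 31.3 CPM in sham duodenum (log2 difference -0.36 ± 0.58). Slc51a measured 212, 181, 237 and 115 CPM in RYGB duodenum, against 172, 198, 287, 197 and 286 CPM in sham duodenum (-0.31 ± 0.25). Slc51b measured 8.9, 12.2, 26.8 and 9.7 CPM in RYGB duodenum, against 10.7, 10.1, 12.8, 10.5 and 26.9 CPM in sham duodenum (-0.02 ± 0.36). The adjusted p of the 3 lay between 0.478 and 0.987. The groups overlapped for all 3 genes, and the median log2 difference was -0.31, beside 0.15 for all duodenal genes. Pancreatic transcripts made up 0.0166%, 1.45%, 0.0354% and 0.00205% of the CPM in RYGB duodenum, against 5.72%, 8.54%, 5.86%, 0.0775% and 0.00639% in sham duodenum. Crypt markers (6 of 7 listed) summed to 30.2 to 679 CPM in RYGB duodenum and 9.3 to 21.1 CPM in sham duodenum, without overlap. Without the 4 libraries above 1% pancreatic transcripts (RYGB 2 and sham 1, 2 and 3), the difference of Cyp27a1 was 0.04.

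The effects in neighbouring gut segments were compared over animals that gave both. The jejunum effect minus the duodenum effect (3 RYGB and 5 sham mice, 10663 genes, 2.4% called) was -1.58 ± 0.41 for Cyp27a1 (adjusted p = 0.0652), 0.75 ± 0.34 for Slc51a (adjusted p = 0.239) and 1.00 ± 0.43 for Slc51b (adjusted p = 0.213). All 3 had an unadjusted p below 0.05, and 0 passed the adjusted threshold in limma. The ileum effect minus the jejunum effect (2 RYGB and 5 sham mice, 10851 genes, 0.00922% called) was 1.42 ± 0.39 for Cyp27a1 (adjusted p = 0.320), -1.01 ± 0.62 for Slc51a (adjusted p = 0.878) and -1.35 ± 0.74 for Slc51b (adjusted p = 0.815). No value is given for Slc10a2 in this comparison, as its listing in jejunum depended on the RYGB libraries. The segments share animals, and their effects were not independent.

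**Figure D4:**
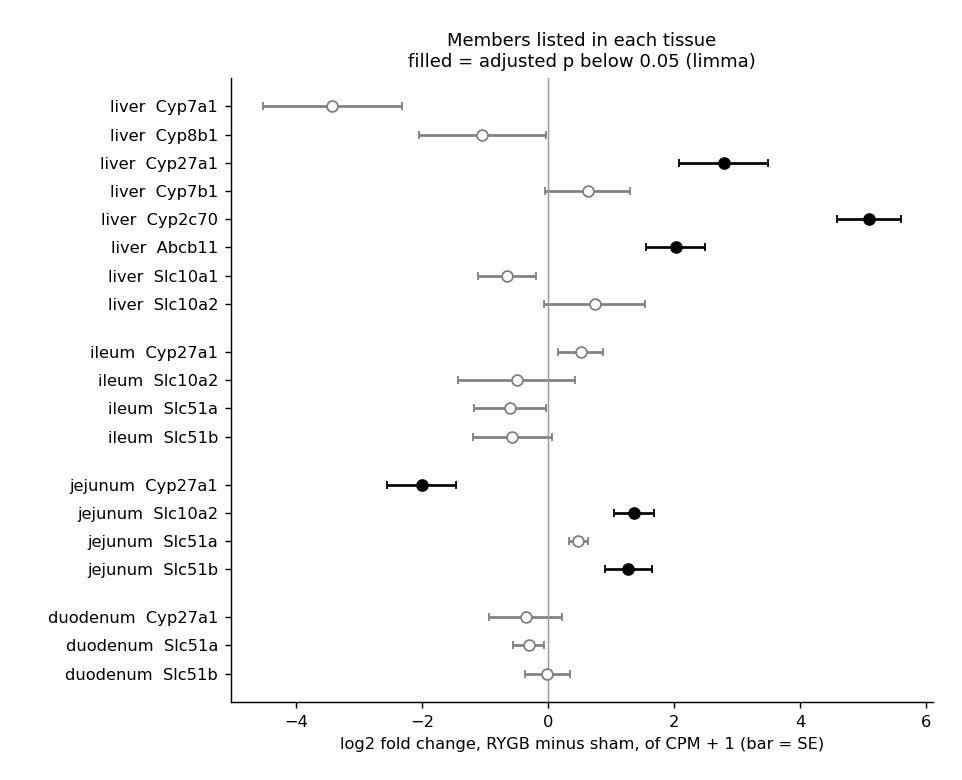
Difference between RYGB and sham on the log2(CPM + 1) scale, with its standard error, for each listed gene in each of the 4 tissues; filled points have an adjusted p below 0.05. Filled to the right of 0 are Cyp2c70, Abcb11 and Cyp27a1 in liver and Slc51b in jejunum. Cyp27a1 in jejunum is filled to the left. The jejunal point of Slc10a2 is also drawn filled, to the right, but is not counted as a call. Slc10a2 was listed in jejunum through its RYGB libraries, so its point there is a description with no test.

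Other genes of bile acid handling were read as 4 lists with 67 genes in all: 20 for side chain and nucleus steps and conjugation, 14 carriers, 20 regulators and 13 for sulphation and hydroxylation. In jejunum 43 were listed, 2 were called higher and 12 lower, beside 6.32% and 6.29% of all jejunal genes. The median log2 difference of the 43 was -0.42, beside 0.08 for all jejunal genes. In liver 51 were listed and none was called, apart from Cyp2b10, which was listed through its RYGB libraries alone and is not counted. In ileum 47 were listed and 0 called, and in duodenum 43 and 1 (lower). The shares called over all genes were 4.63% in liver, 0% in ileum and 0.348% in duodenum. The median log2 differences were 0.25 in liver beside 0.26 for all genes, -0.19 in ileum beside -0.09, and 0.03 in duodenum beside 0.15.

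Among the jejunal carriers, Abcc3, a basolateral efflux pump, averaged 232 ± 119 CPM in RYGB jejunum and 67.2 ± 18.5 CPM in sham jejunum (SD, n = 4 and 5; log2 difference 1.56, adjusted p = 0.0490). The sterol transporter partners Abcg5 and Abcg8 were called lower, at log2 differences of -0.65 and -0.85. Among the regulators, Nr1i3, the xenobiotic receptor CAR, measured 73.4, 74.9, 72.8 and 58.3 CPM in RYGB jejunum, against 188, 180, 142, 160 and 131 CPM in sham jejunum. The groups were well apart (log2 difference -1.18 ± 0.15, adjusted p = 0.00313). Cyp2b10, a known target of that receptor, averaged 141 ± 113 CPM in RYGB jejunum and 634 ± 156 CPM in sham jejunum, and Cyp3a11 averaged 533 ± 243 CPM in RYGB jejunum and 1509 ± 406 CPM in sham jejunum. The log2 difference of Cyp2b10 was -2.93 (adjusted p = 0.0461) and that of Cyp3a11 -1.6 (adjusted p = 0.0189). Hnf4a, a nuclear receptor of hepatocytes and enterocytes, was called higher (0.62 ± 0.18, adjusted p = 0.0447), and Gata6 and Ppargc1a lower (-0.67 and -1.07).

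The list for side chain and nucleus steps and conjugation gave 4 of the 12 lower calls in jejunum. Slc27a2, an acyl-CoA synthetase that activates bile acid precursors, averaged 246 ± 198 CPM in RYGB jejunum and 1163 ± 285 CPM in sham jejunum (log2 difference -2.51 ± 0.44, adjusted p = 0.00959). Acox2, the branched-chain acyl-CoA oxidase of side chain shortening, averaged 25.5 CPM in RYGB jejunum and 59.0 CPM in sham jejunum. Acaa1a, a peroxisomal thiolase, averaged 71.5 CPM in RYGB jejunum and 153 CPM in sham jejunum, and Baat, which joins bile acids to taurine or glycine, 3.35 CPM in RYGB jejunum and 9.76 CPM in sham jejunum. Ugt1a1, a glucuronosyltransferase, was also lower (-1.37, adjusted p = 0.0462); its exons are shared with other Ugt1a genes. These genes were lower in RYGB jejunum, where the Paneth cell markers described above were higher, and the part of those markers was not tested. Of the 14 jejunal calls in these lists, those of Nr1i3 and Slc27a2 held when each library was left out in turn, at adjusted p up to 0.0147 and 0.0316. The other 12 were lost in at least 1 of 9 runs, at adjusted p up to 0.131. All 14 held without RYGB 4 and 3 without sham 2.

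**Figure D5:**
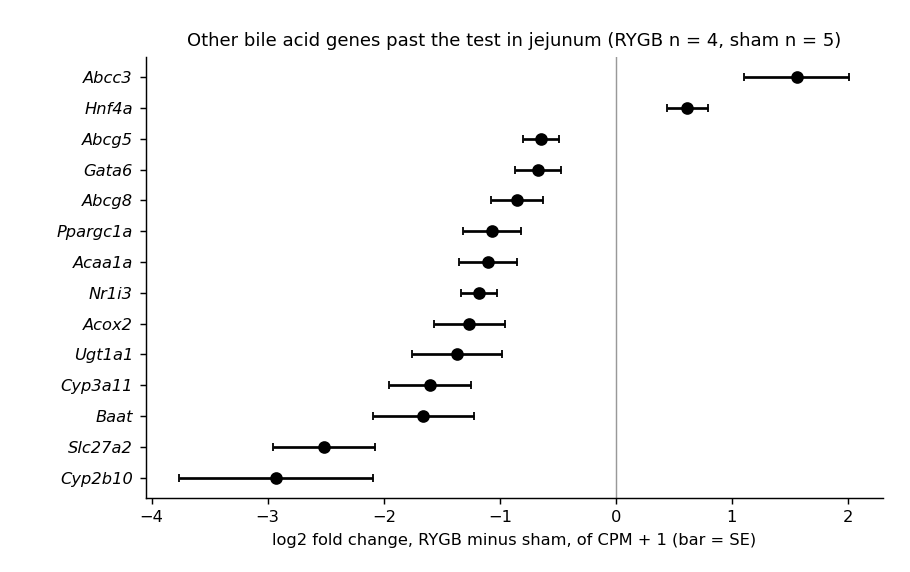
Difference between RYGB and sham jejunum on the log2(CPM + 1) scale, with its standard error, for the 14 other bile acid genes called in jejunum. Abcc3 and Hnf4a lie to the right of 0 and the other 12 to the left, with Nr1i3 at -1.18 ± 0.15.

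In liver, the gene left out of the count of calls was Cyp2b10, with 1.5, 5.1, 2.7, 7.0 and 1.3 CPM in RYGB liver and listed at 0 in all 4 sham libraries. It was listed through the RYGB libraries alone, so this is a description with no test, and near-identical family members may share its reads. Hnf4a averaged 231 ± 157 CPM in RYGB liver and 65.3 ± 38.4 CPM in sham liver (SD, n = 5 and 4; log2 difference 1.75 ± 0.52, adjusted p = 0.0616). Of the genes that follow, chosen after their values were seen for their place in the Fgf15 pathway, the receptor Nr1h4 averaged 123 CPM in RYGB liver and 158 CPM in sham liver, and Nr0b2, which it induces and which represses Cyp7a1, 2.84 CPM in RYGB liver and 3.28 CPM in sham liver. The Fgf15 receptor Fgfr4 averaged 5.2 CPM in RYGB liver and 1.55 CPM in sham liver, and its partner Klb 24.7 CPM in RYGB liver and 14.9 CPM in sham liver. None of Hnf4a, Nr1h4, Nr0b2, Fgfr4 and Klb passed the test. Of the genes with the highest CPM in each list, Scp2, the thiolase that ends side chain shortening, averaged 2734 CPM in RYGB liver and 6909 CPM in sham liver (log2 difference -1.32 ± 0.40, adjusted p = 0.0632), and Slc27a2 3144 CPM in RYGB liver and 6071 CPM in sham liver (-1.14 ± 0.45, adjusted p = 0.107). The carriers Slco1b2 and Slco1a1 averaged 4977 and 1069 CPM in RYGB liver and 7258 and 1467 CPM in sham liver (adjusted p = 0.238 and 0.319). Nr5a2, the receptor LRH-1, averaged 152 CPM in RYGB liver and 238 CPM in sham liver (adjusted p = 0.112). Cyp3a11 averaged 3185 ± 2621 CPM in RYGB liver and 4417 ± 145 CPM in sham liver (SD). The log2 difference of Cyp3a11 was -1.37 ± 0.94 (adjusted p = 0.3 in limma). The sulphotransferase Sult1a1 averaged 601 CPM in RYGB liver and 372 CPM in sham liver (0.38 ± 0.48, adjusted p = 0.581). In duodenum the called gene was Ephx1, an epoxide hydrolase, at 4.78 ± 2.44 CPM in RYGB duodenum and 19.6 ± 5.82 CPM in sham duodenum (SD, n = 4 and 5; log2 difference -1.86 ± 0.32, adjusted p = 0.0398). Without the 4 libraries above 1% pancreatic transcripts it was -1.43 with an adjusted p of 0.939 in limma. That setting drops RYGB 2 and sham 1, 2 and 3, and 0 of the 10930 duodenal genes were called in it. The lost call therefore says little about Ephx1. With 1 library left out in turn the call was lost in 7 of 9 runs, at adjusted p up to 0.156.

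The genes with the highest CPM in these lists did not pass the test in the gut unless named above. In jejunum the log2 differences were 1.33 ± 0.52 for the fatty acid binding protein Fabp1 (2308 CPM in RYGB jejunum and 927 CPM in sham jejunum, adjusted p = 0.114), -0.65 ± 0.24 for the vitamin D receptor Vdr (adjusted p = 0.0963), 0.17 ± 0.53 for Papss2, which makes the sulphate donor, 0.11 ± 0.14 for the flippase Atp8b1 and -0.10 ± 0.18 for the peroxisomal carrier Abcd3. In duodenum they were -0.91 ± 0.23 for the efflux pump Abcc2 (522 CPM in RYGB duodenum and 992 CPM in sham duodenum, adjusted p = 0.0734), -0.72 ± 0.23 for Vdr, 1.09 ± 0.50 for Fabp1, -0.80 ± 0.28 for Cyp3a11, -0.64 ± 0.35 for Papss2, -0.58 ± 0.24 for Slc27a2, 0.29 ± 0.22 for Abcd3 and 0.11 ± 0.26 for Hnf4a. In ileum they were -1.07 ± 0.69 for the efflux pump Abcb1a, 0.81 ± 0.44 for Papss2, 0.57 ± 0.85 for Cyp3a11, -0.55 ± 0.28 for Hnf4a, 0.38 ± 0.31 for Abcd3, -0.32 ± 0.29 for Vdr, 0.19 ± 0.22 for the peroxisomal enzyme Hsd17b4 and -0.17 ± 0.36 for Atp8b1.

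Of all liver genes, those whose log2(CPM + 1) followed Cyp7a1 most closely over the 9 libraries were Mzt2, Hmgb3, Angpt1, Xkr9 and Hadh, with Pearson's r of 0.98, 0.975, 0.963, 0.961 and 0.956. Over the 16 libraries of jejunum and ileum, Slc10a2 was followed most closely by Tmigd1, Slc51a, Ereg, Mfhas1 and Plb1, with r of 0.979, 0.968, 0.964, 0.962 and 0.951. The ileal and jejunal libraries form separate clusters for Slc10a2, so that its r values describe mainly the gap between the segments. The 9 liver libraries come from different animals, while jejunum and ileum share animals, and these genes were picked as the highest of 10285 and 10851.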

How the data were processed

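The values are gene-level CPM that the authors deposited, with a table for each tissue and 1 decimal per value. HTSeq counted reads on GRCm38, per the submitters' processing notes. The aligner, annotation release and strand setting were not given in the sources used here. All genes of a deposited table reach 1 CPM in at least the number of libraries of the smaller group, which was checked. The ileum table repeated 339 lines, which were removed, as were lines with no identifier (2 in ileum, 6 in liver).

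Samples were grouped by title and surgery label. As the tables hold CPM and whole reads could not be recovered for most libraries, no count-based test was run. In each tissue limma (version 3.58.1, R 4.3.3; lmFit, eBayes with trend and robust options) was applied to log2(CPM + 1) with a term for surgery alone, two-sided, and p-values were adjusted (Benjamini-Hochberg) over the whole table, with a threshold of 0.05. Effects in a pair of tissues were compared in a joint model blocked by animal. Exact permutation tests of single genes used the difference in mean log2(CPM + 1). Exon bases and coordinates come from the GENCODE annotation of GRCm38 and promoters from RefSeq. Python 3.11.15, pandas 2.3.3 and matplotlib 3.10.9 were used, and the fits were tested on simulated data. No pair of libraries held identical values (0 pairs).

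The 10 genes, the lists and the tests were chosen with earlier results of these data known. Every one of the 10 genes is named. Other bile acid genes were named if they passed the threshold or had one of the 2 highest mean CPM of their list; Fgf15, Fabp6, Nr1h4, Nr0b2, Fgfr4 and Klb were chosen after their values were seen. Also named are the genes most like Cyp7a1 and Slc10a2. Alternatives were a pseudocount of 0.1, median-of-ratios scaling, a mean CPM of at least 5, the replicate number as a block, library weights, each library left out in turn, and the duodenum without libraries above 1% pancreatic transcripts. Added after seeing the data were the liver without its 5 libraries of known depth, subtraction of a lowess curve on exon length from every library (span 0.3), the ileum without RYGB 2 and sham 4 together, the comparison of jejunum with liver, and the other called bile acid genes under the same settings.

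Within a tissue, the p-values judge the difference between the groups against the spread between animals of a group. In the comparisons between tissues, animal was a block in the model. Depth limits the low values in liver; elsewhere it is unknown and no interval from counts is given.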

Additional observations from a re-analysis of the deposited data

Results flagged for a closer look

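In 66 groups of 4 or 5 libraries of genes named above, the highest or lowest library was tested for its distance from the rest by Dixon's rule. It stood apart in 8, where chance gives about 1 in 20. In 5 of the 8 it was RYGB library 4 of jejunum, the jejunum of mouse R5. There Abcc3 was at 59.3 CPM (the other RYGB libraries at 252.6 to 326.9), Abcg5 at 581.8 (427.8 to 436.1), Abcg8 at 514.7 (264.1 to 269.9), Ugt1a1 at 230.6 (49.9 to 59.8) and Nr1i3 at 58.3 (72.8 to 74.9). For Abcc3, Abcg5, Abcg8 and Ugt1a1 that library was nearer to the sham libraries than the other RYGB libraries were, and for Nr1i3 it was farther from them.

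RYGB library 2 of jejunum had 7.7 CPM of Slc10a2, where the other RYGB libraries had 2.3 to 2.6. Sham library 5 of jejunum had 171.4 CPM of Ppargc1a (the other sham libraries 288.8 to 320.3), and sham library 5 of duodenum had 26.9 CPM of Slc51b (10.1 to 12.8).

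Cyp27a1 differed in direction between tissues, at -2.01 in jejunum and 2.79 in liver, with all RYGB libraries on one side of the sham libraries in each. The test of that difference gave -4.47 with an adjusted p of 0.107.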

How the results depend on the processing

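Of 147 values of the 10 genes under other settings, 127 kept direction and side of the threshold. The others were 8 that lost the call, 6 that gained one and 6 that changed sign. Of 163 with 1 library left out, the numbers were 124, 28, 3 and 8. Both sets include jejunal Slc10a2. The count of liver genes called, 476, was 992 with median-of-ratios scaling, 718 without the 5 libraries of known depth, 835 with the length trend removed, 3258 with library weights and 3 to 2253 with 1 library left out. Called liver genes among the 8, 3 as reported, were 5 with library weights, which added Cyp7a1 and Slc10a1, and 1 to 4 with 1 library left out. Liver Cyp27a1 had an adjusted p of 0.0523 at a pseudocount of 0.1. In ileum the count of 0 was 1 with library weights, 4 without RYGB 2 and sham 4, and 0 to 46 with 1 library left out. In jejunum 1390 genes were called, and 484 to 2258 with 1 library left out. There Cyp27a1 and Slc51b each lost the call in 7 of 9 runs, and Slc51a gained one in 1. Slc51b had an adjusted p of 0.0523 at the pseudocount of 0.1 and of 0.0514 with median-of-ratios scaling. In duodenum the count of 38 (14 higher, 24 lower) was 50 with median-of-ratios scaling (13 higher, 37 lower), 105 at a mean CPM of at least 5 (68 higher, 37 lower), 2140 with library weights (1576 higher, 564 lower), 0 without pancreatic libraries (378 at an unadjusted p below 0.05 in limma) and 1 to 982 with 1 library left out, the most without RYGB 3 (820 higher, 162 lower). With the length trend removed, 0 genes were called in ileum (445 at an unadjusted p below 0.05), 1552 in jejunum and 34 in duodenum, and the listed genes kept their calls.

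Replicate numbers name different animals in the 2 groups and did not pair them: the correlations of same-numbered libraries were -0.352 to 0.102 in liver, -0.253 and 0.376 in ileum, -0.247 to 0.087 in jejunum and -0.317 to 0.556 in duodenum, and not every library correlated best with its own number. With the replicate block, 7 genes were called in liver, 593 in ileum, 455 in jejunum and 450 in duodenum; among the listed genes 1 was called in liver and 0 in jejunum.

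Signs changed for liver Slc10a1 without the libraries of known depth (0.67), ileal Slc10a2 (0.16) and Slc51a (0.0845) without RYGB 2 and sham 4, duodenal Slc51b with the block (0.23) and with library weights (0.0918), and duodenal Cyp27a1 without pancreatic libraries (0.0396). With 1 library left out, ileal Slc10a2 ranged over -1.71 to 0.71, Slc51a over -1.55 to 0.33, Slc51b over -1.26 to 0.12, duodenal Cyp27a1 over -0.82 to 0.21 and duodenal Slc51b over -0.34 to 0.23. Leaving out 1 animal gave 0 to 1 calls among the listed genes in each comparison between tissues. There was 1 without R5 in jejunum against duodenum and against liver, and 1 without W15 in ileum against jejunum. These counts include Slc10a2 where both tissues listed it. The cause of these changes was not tested. Depth is unknown outside 5 liver libraries, which limits what can be said of Slc10a2 in jejunum, and Cyp8b1 in RYGB 2 liver rests on about 11 reads.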

Other observations

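White adipose tissue and muscle, which entered no comparison here, listed 4 and 1 of the 10 genes. In white adipose tissue Cyp27a1 measured 15, 15.9, 21.1 and 24.6 CPM in RYGB mice, against 51.0, 58.7, 39.1, 51.4 and 51.8 CPM in sham mice, without overlap, as for 33.6% of all 12690 adipose genes. Cyp7b1 measured 1.0 to 2.6 CPM in RYGB mice and 1.3 to 2.2 CPM in sham mice. Cyp2c70 measured 0.3 to 0.9 CPM in RYGB mice and 1.5 to 8.1 CPM in sham mice, and Slc10a1 0.4 to 0.6 CPM in RYGB mice and 0.5 to 4.1 CPM in sham mice. Both were listed through the sham libraries, as no RYGB library reached 1 CPM. Hepatocyte markers summed to 58.8 to 73.9 CPM in RYGB adipose tissue and 70.0 to 328.9 CPM in sham adipose tissue. In muscle Cyp27a1 measured 35.6, 145.3, 61.3 and 56.3 CPM in RYGB mice, against 52.1, 73.2, 43.7 and 92.6 CPM in sham mice, with overlap. The source label of all 4 muscle libraries titled RYGB says sham, and the grouping follows their titles. These values were not tested.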
